A study of Rattus norvegicus with 10 samples.

Results

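The Nr4a orphan nuclear receptors, Nr4a1 (ENSRNOG00000007607), Nr4a2 (ENSRNOG00000005600) and Nr4a3 (ENSRNOG00000005964), were followed in the PFC of rats given MK-801. They are 3 of the 30560 genes of the deposited count table, found by their Ensembl identifiers. The family was selected on the difference of its counts between MK-801 and control rats in earlier results of these data, so the levels in the 2 groups are given as a description and not as a test. RNA was sequenced from the PFC of 10 wild-type male SD rats, 5 per group, which were 21 days old before 1 week of habituation. The control group then received saline (0.9%) and the MK-801 group received MK-801 at 0.2 mg/kg, both by intraperitoneal injection for 2 weeks. MK-801 is a non-competitive antagonist of the NMDA receptor, and its repeated use in young rats is a pharmacological model of the reduced glutamate signaling proposed in schizophrenia. Each library came from 1 rat. The interval between the last injection and the collection of the tissue for sequencing was not given in the sources used here, and it matters for genes whose transcripts are made and lost quickly.

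The Nr4a receptors are transcription factors of the nuclear receptor superfamily that act without a known physiological ligand, since their ligand-binding pocket is filled by bulky side chains. Their activity is thus set largely by how much of them is made. In neurons they behave as immediate early genes: calcium entry and cAMP signaling switch them on through CREB and its CRTC co-activators, and the kinase SIK1 restrains CRTC. Nr4a1 (Nur77, NGFI-B) is induced in cortical and striatal neurons by activity and by drugs that act on dopamine transmission. Nr4a2 (Nurr1) is best known for the development and upkeep of midbrain dopamine neurons, and is also found in deep cortical neurons. Nr4a3 (NOR-1) is the third member and binds the same response element, NBRE, as a monomer.

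The sequence before the transcription start is shown for Nr4a1 because its level differed most between the groups, and because CREB binds the CRE, whose core is TGACG. This is the 250 bases before the start in RefSeq, on the plus strand of GRCr8 at chr7:134259888-134260137, with the matches to TGACG on either strand (read as CGTCA on the strand printed) in capitals.
Nr4a1: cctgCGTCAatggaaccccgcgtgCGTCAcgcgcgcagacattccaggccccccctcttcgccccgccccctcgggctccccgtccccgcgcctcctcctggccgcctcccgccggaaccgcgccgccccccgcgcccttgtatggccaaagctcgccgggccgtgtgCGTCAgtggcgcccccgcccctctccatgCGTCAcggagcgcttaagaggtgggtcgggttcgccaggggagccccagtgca
The window held 4 CRE cores, whose first letters lay 246, 226, 82 and 53 bases before the start. At least 1 core was present in 18.2% of the 33469 RefSeq windows of the same length, and at least 4 in 0.173% of them. G and C made up 74.8% of the Nr4a1 window, against a median of 51.2% over all windows, and 96.4% of the windows had a lower share. The core itself contains CG, and how often windows of like composition hold 4 cores was not computed. The GC box GGGCGG matched at 3 places on either strand, and at least 3 matches were found in 7.41% of the windows. The full CRE TGACGTCA, which contains the core on both strands, had no match, and neither had NBRE (AAAGGTCA), the E-box CACGTG, the TATA box TATAAA, the SRE or the MEF2 box. These letters were present in 1.59%, 1.24%, 5.59%, 12.9%, 1.50% and 2.96% of all windows, respectively. The SRE was searched only as CCWWWWWWGG and the MEF2 box only as YTAWWWWTAR, where W is A or T, Y is C or T and R is A or G. Looser forms of any motif were not counted, so their absence is not shown. The RefSeq window of Nr4a2 (GRCr8, minus strand, chr3:62104888-62105137) held 1 CRE core, 8 bases before the start, and no match to the other motifs. Both windows lay inside the annotated span of their gene, so they belong to 1 of several annotated starts, and they are GRCr8 sequences whereas the reads were counted on mRatBN7.2. A match is a description of the letters and not a site of binding.

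The libraries held between 24334589 and 30824539 counts per rat, and the genes compared were the 16137 that passed the filter on low counts, the Nr4a genes among them. No pair of rats agreed within sampling noise. The 10 most abundant genes of each rat took 8.27% ± 1.81 (SD, n = 5) of its counts among control rats and 6.66% ± 0.471 (SD, n = 5) among MK-801 rats. Levels are given as CPM, counts corrected for the depth of each library as scaled by the TMM method, and are compared between rats for 1 gene at a time, since longer transcripts give more counts.

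Nr4a1 was higher in 4 of the 5 MK-801 rats than in any control rat. In the control group, replicates 1 to 5 had 51.7, 56.4, 42.9, 59.3 and 81.1 CPM. In the MK-801 group, replicates 1 to 5 had 46.1, 139, 167, 148 and 135 CPM. MK-801 replicate 1 thus lay within the control range, while the other MK-801 rats lay close together and well above it. The mean was 58.3 ± 14.2 CPM (SD, n = 5) for control rats and 127 ± 46.8 CPM (SD, n = 5) for MK-801 rats. The log2 fold change, MK-801 over control, was 1.12 with a standard error of 0.28 in edgeR's quasi-likelihood fit, or 2.18-fold. Without MK-801 replicate 1, the MK-801 mean was 147 ± 14.2 CPM (SD, n = 4) and the log2 fold change was 1.34.

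Nr4a2 was divided within the MK-801 group. The control rats had 9.21, 10.4, 11.7, 10.2 and 15.0 CPM in the order of their replicate numbers, and the MK-801 rats had 11.2, 11.9, 25.2, 11.5 and 22.5 CPM. MK-801 replicates 3 and 5 lay above all control rats, and the other 3 MK-801 rats lay inside the control range though above the control median. The group means were 11.3 ± 2.25 CPM (SD, n = 5) and 16.5 ± 6.80 CPM (SD, n = 5). The log2 fold change of 0.54 (standard error 0.24), or 1.45-fold, was 0.34 without MK-801 replicate 3 and 0.41 when replicate 5 of that group was left out.

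Nr4a3 differed least between the groups with all 10 rats, though not without MK-801 replicate 3, when its log2 fold change was 0.53 against 0.34 for Nr4a2. The control rats lay close together, at 35.0, 32.3, 34.4, 34.2 and 39.6 CPM, whereas the MK-801 rats had 45.8, 42.3, 31.7, 47.2 and 67.1 CPM. Here MK-801 replicate 3, the rat with the highest Nr4a1 and Nr4a2, was the lowest of all 10 rats, and the other 4 MK-801 rats lay above every control rat. The mean was 35.1 ± 2.69 CPM (SD, n = 5) for control rats and 46.8 ± 12.8 CPM (SD, n = 5) for MK-801 rats. This gave a log2 fold change of 0.42, with a standard error of 0.15, or 1.33-fold. MK-801 replicate 5 carried much of it, as the log2 fold change was 0.25 without that rat.

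**Figure D1:**
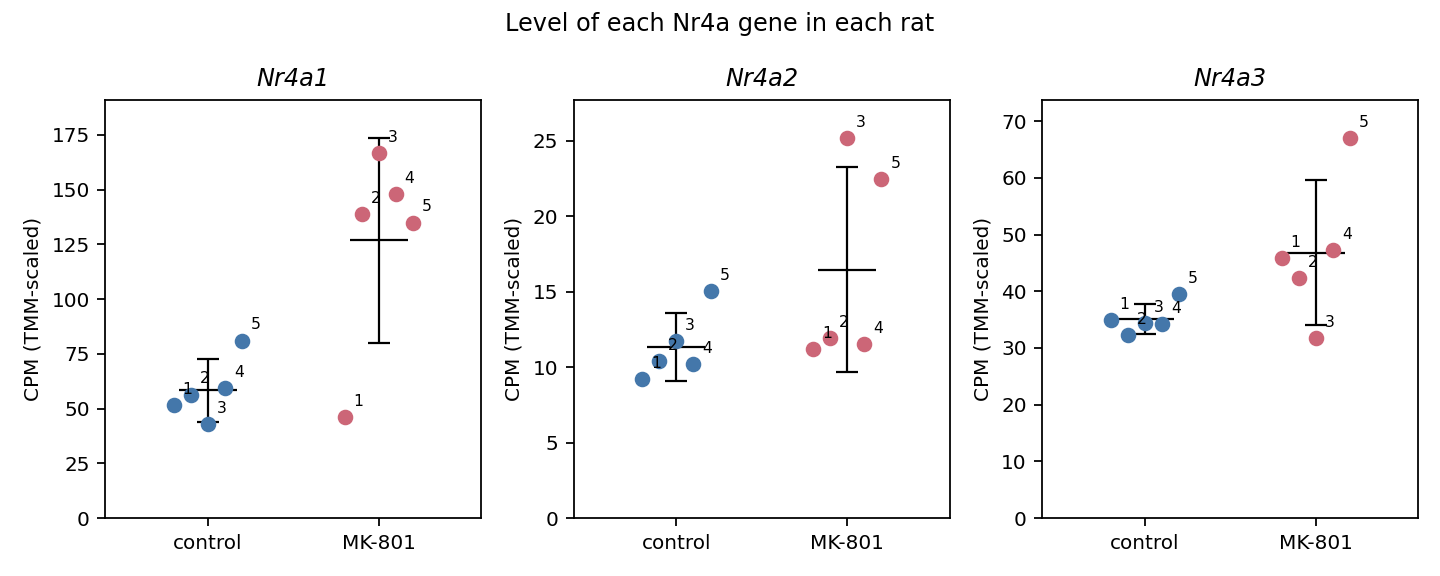
Level of Nr4a1, Nr4a2 and Nr4a3 in CPM (vertical axes, from 0, with a scale for each gene) in each rat of the control and MK-801 groups. Points are rats labelled by replicate number, and bars are the mean and SD of 5 rats; MK-801 replicate 1 lies in the control range for Nr4a1, replicates 3 and 5 stand above the rest for Nr4a2, and replicate 3 is lowest for Nr4a3.

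All 3 Nr4a genes had a positive log2 fold change, as did 48.7% of the 16137 genes tested, whose median was -0.01. By the criteria of the study's methods, taken as an unadjusted p-value under 0.05 and a log2 fold change of 1 or more in size, edgeR called 1 of the 3, Nr4a1, and 0.229% of all genes tested. After Benjamini-Hochberg adjustment over all genes, 0 of the 3 and 0% of all genes passed 0.05, while 3 of the 3 and 13.9% of all genes, or 2235, passed it without adjustment. DESeq2 tested more genes, since the filter on low counts was not applied there. It called 1 of the 3 by the criteria of the methods, against 0.481% of 23893 genes, and 0 of the 3 after adjustment, against 0.724% of the 14633 genes given an adjusted p-value. Unadjusted, 3 of the 3 were below 0.05 in DESeq2, against 9.95% of the 23893 genes, or 2377. The unadjusted count was 2 of the 3 in limma-voom, which left out Nr4a2, against 13.8% of the 16137 genes. In edgeR with each rat left out it was 2 or 3 of the 3. The share of all genes then ranged from 9.01%, without control replicate 3, to 20.2%, without control replicate 5. None of the Nr4a genes separated the groups without overlap in CPM, which 2.31% of all genes did. By the size of its log2 fold change, Nr4a1 was in place 24 among the genes higher in the MK-801 group, Nr4a2 in place 181 and Nr4a3 in place 394. These values belong to the comparison with which the family was chosen, and nothing further is read from them.

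**Figure D2:**
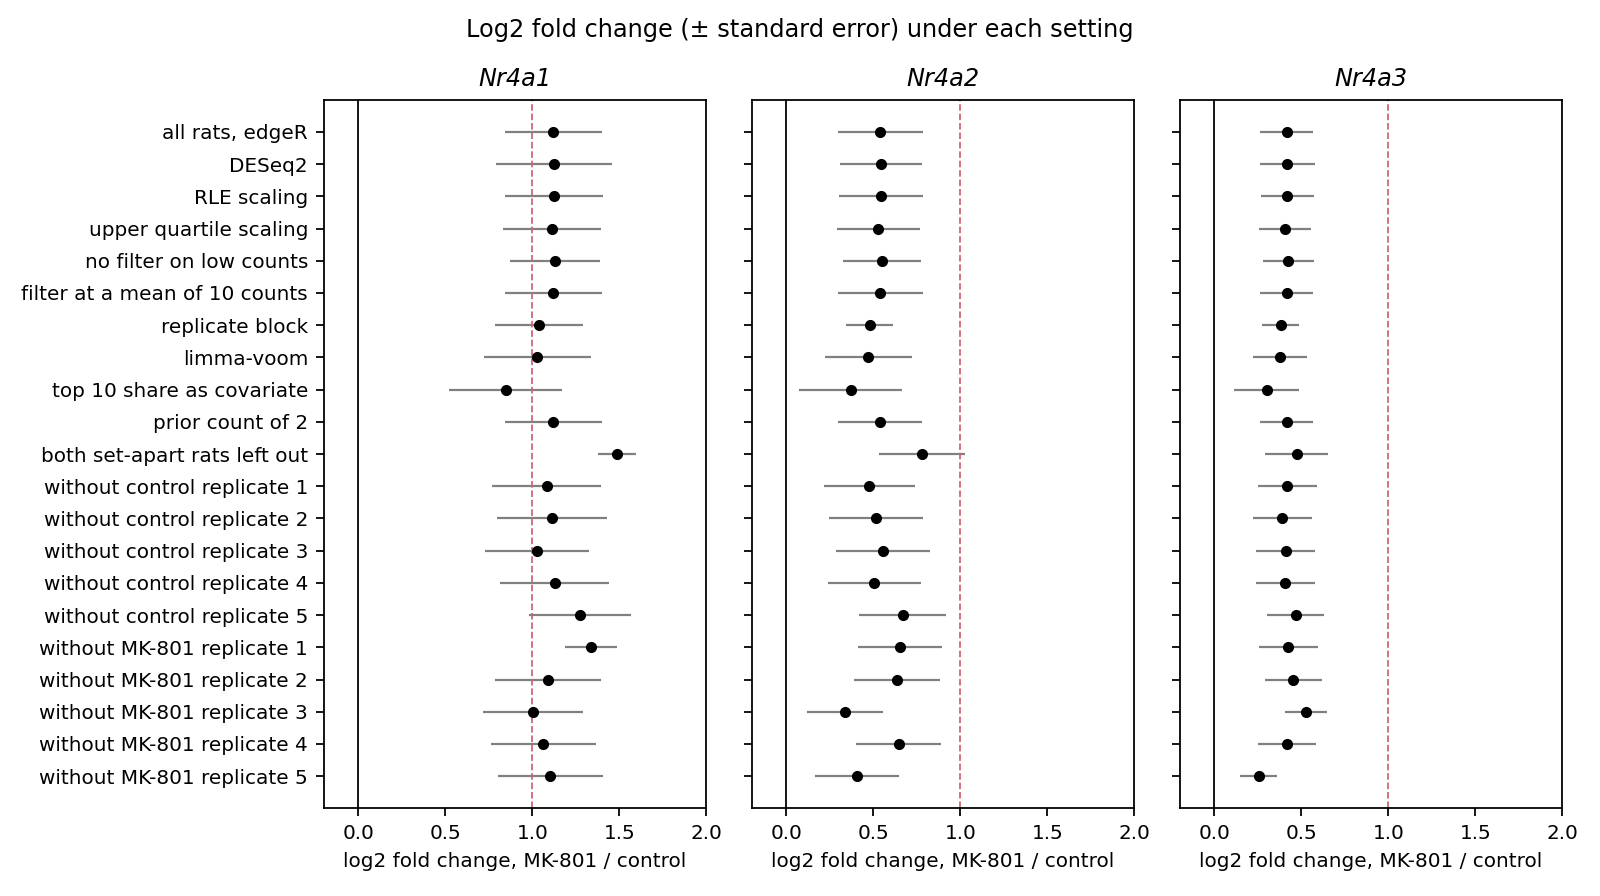
Log2 fold change, MK-801 over control, for each Nr4a gene (horizontal axes), under each setting of the analysis (rows). Points are fitted values with their standard errors, the solid line marks no difference and the dashed line the criterion of 1; every point lies above 0, and that of Nr4a1 lies below 1 when the top 10 share, that of the most abundant genes, is a covariate.

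The share of counts in the 10 most abundant genes was lower on average in the MK-801 group, and when it entered the fit as a covariate the log2 fold changes were 0.85 for Nr4a1, 0.37 for Nr4a2 and 0.30 for Nr4a3. Nr4a1 then no longer met the fold change criterion, and it was the 1 member of the 3 that stayed below 0.05 unadjusted, against 4.82% of all genes. The part of this share in the differences was not tested. In whole PFC tissue, a change in the number of cells that express a gene and a change in its RNA per cell cannot be told apart.

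The spread between rats was wider in the MK-801 group for each Nr4a gene, whereas 47.3% of all genes tested had the wider spread in that group. For Nr4a1, the SD of log2 CPM was 0.76 in the MK-801 group and 0.34 in the control group. Replicate 1 made up most of the former, since the other 4 MK-801 rats had an SD of 0.14. For Nr4a2 the SD was 0.57 in the MK-801 group and 0.27 in the control group, and for Nr4a3 it was 0.39 and 0.11. These spreads came from MK-801 replicates 3 and 5, which lay farthest from the other rats. When replicate 3 was left out the MK-801 SD was 0.48 for Nr4a2 and 0.29 for Nr4a3, and when replicate 5 was left out it was 0.56 and 0.26. Without both, it was 0.04 for Nr4a2 and 0.08 for Nr4a3 over 3 rats, below the SD of the control group, as was that of Nr4a1 without replicate 1. The control group kept all its rats there, so the groups were not trimmed alike. Without control replicate 5, the control SD was 0.21 for Nr4a1, 0.14 for Nr4a2 and 0.05 for Nr4a3. For Nr4a3 it was then below the MK-801 value of 0.08. The 0.04 of Nr4a2 and the 0.05 of Nr4a3 were no larger, or hardly larger, than counting error alone would give. The comparisons that rest on them therefore say nothing of how the rats differ. As the median over all genes, the SD was 0.15 in either group.

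Counting error was small beside the spread over all 5 rats of a group, though less so for Nr4a3 in the control group. Each rat gave between 1216 and 4455 counts for Nr4a1, between 256 and 697 for Nr4a2 and between 794 and 2081 for Nr4a3. From counting alone, the error of a single rat was at most 2.87% for Nr4a1, 6.25% for Nr4a2 and 3.55% for Nr4a3. The SD between rats, as a percentage of the mean, was 24.4% and 36.9% for Nr4a1 in the control and MK-801 groups, 19.9% and 41.3% for Nr4a2, and 7.67% and 27.4% for Nr4a3. Pooled over the groups, the SD of log2 CPM was 0.58 for Nr4a1, 0.45 for Nr4a2 and 0.28 for Nr4a3. Among genes within 0.5 log2 CPM of the same mean level, which numbered 2035, 2181 and 2575, the median SD was 0.10, 0.15 and 0.11, and 99.9%, 96.7% and 95.6% of them had a smaller SD than the Nr4a gene. These positions rested on few rats. Without MK-801 replicate 1, the pooled SD of Nr4a1 was 0.27 and 95.2% of the genes of similar level had a smaller one. Without MK-801 replicates 3 and 5, the pooled SD was 0.22 for Nr4a2 and 0.10 for Nr4a3, with 79.6% and 43.8% of such genes below them. With any 1 rat left out, the lowest percentages were 95.2% for Nr4a1, 94.9% for Nr4a2 and 85.9% for Nr4a3. The rats left out were picked by their distance from the rest, which narrows the spread by itself.

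**Figure D3:**
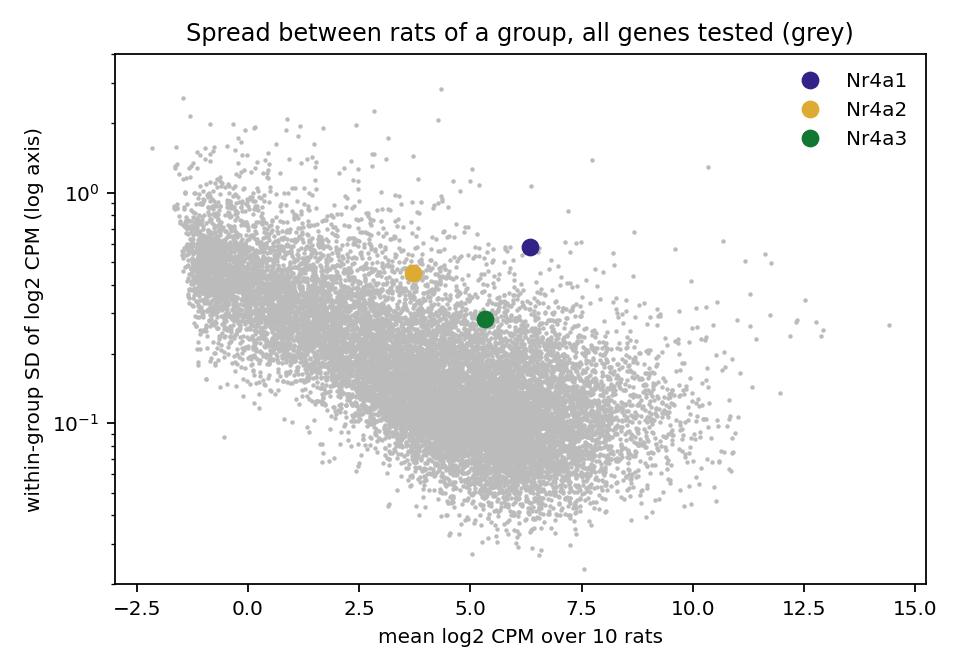
Spread between rats of a group, as the pooled SD of log2 CPM (vertical log axis), against the mean log2 CPM over 10 rats (horizontal axis). Each grey point is 1 of the 16137 genes tested and the coloured points are the Nr4a genes, which lie at 0.58, 0.45 and 0.28, toward the upper edge at their level.

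Whether the Nr4a genes vary together from rat to rat was examined after the mean of each group had been taken off. The difference between the group means thus played no part, but its unevenness among the MK-801 rats stayed in the deviations. Control replicate 5 lay above its group mean for all 3 genes, by 0.51, 0.43 and 0.18 on the log2 scale for Nr4a1, Nr4a2 and Nr4a3, and so did MK-801 replicate 5, by 0.21, 0.54 and 0.56. Control replicate 1 lay below its group mean for all 3 genes, at -0.14, -0.27 and -0.001, and so did control replicate 2, at -0.01, -0.10 and -0.12. In all, 3 of the 5 control rats and 1 of the 5 MK-801 rats lay on the same side of their group mean for the 3 genes, some of them by very little. The other rats were divided. MK-801 replicate 1 lay at -1.33 for Nr4a1 and -0.46 for Nr4a2 but at 0.01 for Nr4a3. MK-801 replicate 3 lay at 0.52 for Nr4a1 and 0.71 for Nr4a2 but at -0.52 for Nr4a3.

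**Figure D4:**
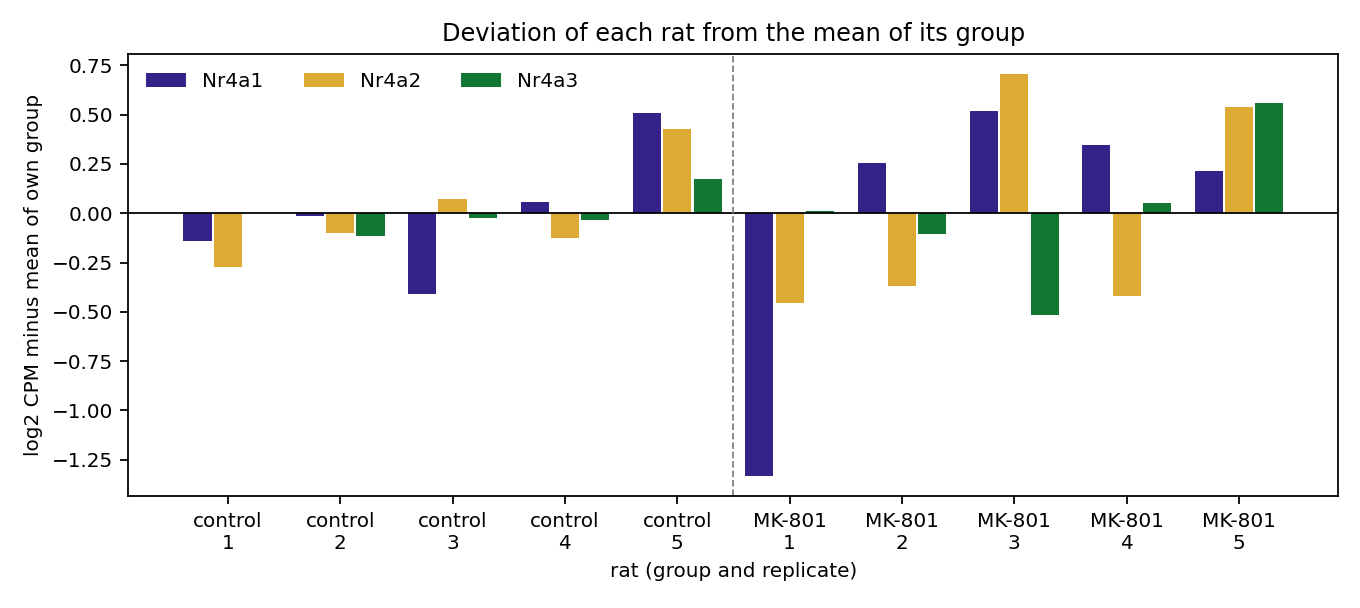
Log2 CPM of each rat minus the mean of its own group (vertical axis) for Nr4a1, Nr4a2 and Nr4a3, by rat (horizontal axis; the dashed line divides the groups). Bars of the same rat point the same way in replicate 5 of both groups and in control replicates 1 and 2, and in opposite ways in MK-801 replicate 3.

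Over the 10 rats, these deviations gave Pearson's r = 0.51 and Spearman's rho = 0.44 for Nr4a1 and Nr4a2 (two-sided exact permutation test within groups, p = 0.226 and 0.268, adjusted over the 3 pairs p = 0.677 and 0.805). For Nr4a1 and Nr4a3, r was -0.05 and rho was -0.04 (same exact permutation test, p = 0.817 and 0.929, adjusted p = 0.910 and 0.929). For Nr4a2 and Nr4a3, r was 0.04 and rho was -0.09 (same exact permutation test, p = 0.910 and 0.837, adjusted p = 0.910 and 0.929). No covariation of the 3 genes was thus detectable over the 10 rats together. The MK-801 rats, whose spread was wider, weigh more than the control rats in these values, and 5 rats are too few for a correlation within 1 group. Without the 2 rats farthest from the median of the first gene of the pair, r was 0.55 for Nr4a1 and Nr4a2 and -0.16 for Nr4a1 and Nr4a3, where these rats were MK-801 replicate 1 and control replicate 3. For Nr4a2 and Nr4a3 it was 0.63 without MK-801 replicates 3 and 5. The last pair turned on MK-801 replicate 3, without which r was 0.90 (exact permutation p = 0.0378, adjusted p = 0.114), and on MK-801 replicate 5, without which it was -0.61 (exact permutation p = 0.217, adjusted p = 0.408).

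Relative to one another, the Nr4a genes also shifted from rat to rat. The log2 CPM of Nr4a1 minus that of Nr4a3 lay between 0.32 and 1.03 in the control rats. It was 0.01 in MK-801 replicate 1, 1.01 in MK-801 replicate 5 and 1.65, 1.71 and 2.39 in MK-801 replicates 4, 2 and 3. These last 3 rats lay above all control rats in this difference. Since the difference contains the lengths of both transcripts, it is compared between rats only. Summed over the family, the level was 105 ± 18.1 CPM (SD, n = 5) for control rats, from 89.0 to 136. For MK-801 rats it was 190 ± 50.4 CPM (SD, n = 5), from 103 to 225. Nr4a1 gave between 44.7% and 74.5% of the counts of the family in each rat. The sum thus follows Nr4a1 most and does not show a rise shared by the 3 genes, and the lengths of the transcripts enter it.

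With many genes and 10 rats, some genes are bound to be closer to each Nr4a gene than the other Nr4a genes are. The share of such genes is therefore given. Of 16067 other genes with a mean of at least 10 counts, 8.10% had a higher within-group r with Nr4a1 than Nr4a2 had, and 54.4% had a higher one than Nr4a3 had. For Nr4a2, 11.0% of the genes had a higher r than Nr4a1 had, and 47.2% had a higher one than Nr4a3 had. The highest r of any gene was 0.98 with Nr4a1, 0.96 with Nr4a2 and 0.96 with Nr4a3. The genes closest to the mean deviation of the family were ENSRNOG00000030374, at r = 0.94, and ENSRNOG00000006118, also at r = 0.94, both over 10 rats. ENSRNOG00000030374 had r = 0.89 with Nr4a1, 0.64 with Nr4a2 and 0.28 with Nr4a3, and ENSRNOG00000006118 had 0.83, 0.75 and 0.23. The mean of the family was taken over unscaled deviations, so Nr4a1, with the widest spread, weighed most in it and Nr4a3 least. The order of these values thus follows in part from how the genes were picked. ENSRNOG00000030374 had only 23 to 40 counts per rat, and ENSRNOG00000006118 had between 441 and 1465. Their log2 fold changes were 0.11 (standard error 0.18) and 0.23 (standard error 0.27). These correlations are the extremes of many genes over few rats and are given as a description.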

How the data were processed

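PFC RNA of 10 rats was sequenced, 1 library per rat. Per the labels, the authors mapped them to mRatBN7.2 using HISAT2 2.2.1, handled the alignments in SAMtools 1.15.1, and ran featureCounts of Subread 2.0.1 against Ensembl release 105. The strand setting was not given in the sources used here, so reads of overlapping antisense genes may be shared. The deposited values are whole-number counts per gene, not normalized. Groups and replicate numbers were taken from the sample titles.

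Here, edgeR 4.0.16 (R 4.3.3) compared the groups, with filterByExpr at its default settings (minimum count 10, minimum total 15; 16137 genes kept), TMM scaling, and the two-sided quasi-likelihood test with Benjamini-Hochberg adjustment over all genes. Standard errors were derived from the F statistic, with a prior count of 0.125. Log2 CPM used a prior count of 2. Within-group correlations used all 14400 orders of the rats within groups.

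No sequencing batch or date was given in the sources used here. The p-values of edgeR set the difference between the groups against the spread between these rats, moderated by that of all genes. Those of the correlations come from the orders of the rats within groups. The depth of 24334589 to 30824539 counts per rat leaves counting error small for the Nr4a genes. The intervals of counting cover counting error only. In simulated counts of this comparison, with 200 genes changed by a factor of 2, edgeR recovered 171 of the 197 changed genes among 16000 tested at an adjusted p-value under 0.05 and called 10 unchanged ones. The changed genes were picked at random and each gene was drawn independently, without variation shared between genes. This recovery therefore need not hold for the Nr4a genes, whose spread was wider than that of most genes of similar level.

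The alternatives were DESeq2 (version 1.42.0), RLE and upper quartile scaling, no filter, a mean of 10 counts as the filter, a block for the replicate number, limma-voom (limma 3.58.1), a covariate for the share of counts in the 10 most abundant genes, other prior counts, each rat left out, and control replicate 5 and MK-801 replicate 1 both left out. The spread with rats left out was added after the data were seen. The members, lists and settings were chosen with earlier results of these data known. The symbols of the Nr4a genes came with their identifiers; the RefSeq table (GRCr8) matched 0 Ensembl identifiers. Lists fixed by symbol (partner receptors, inducers, activity genes, targets, other nuclear receptors, cell type markers) are therefore not analysed here, and the tissue was not checked by markers. Further genes were to be the 2 closest to the mean of the family by within-group r. RefSeq windows matched 2 of the 3 symbols, Nr4a1 and Nr4a2. Python (version 3.11.15) was used for the correlations and the windows.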

Additional observations from a re-analysis of the deposited data

Results flagged for a closer look

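Within each group of 5 rats, the distance in log2 CPM from an extreme rat to its neighbour was divided by the distance between both extremes, and a rat was singled out above 0.71. Among 12 groups, for the 3 Nr4a genes and their 3 pairwise differences, 3 had such a rat, where chance gives about 1 in 20; the 6 measures are not independent of one another. For Nr4a1, MK-801 replicate 1 was lowest with a quotient of 0.835, at 46.1 CPM against 135 to 167 in the other MK-801 rats. For Nr4a1 minus Nr4a2, control replicate 3 was lowest with a quotient of 0.851, at 1.86 against 2.43 to 2.53 in the other control rats. For Nr4a3 minus Nr4a2, MK-801 replicate 3 was lowest with a quotient of 0.732, at 0.33 against 1.57 to 2.03 in the other MK-801 rats.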

How the results depend on the processing

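The log2 fold changes of the Nr4a genes kept their sign in every setting run. With all rats or both of control replicate 5 and MK-801 replicate 1 left out, they lay between 0.85 and 1.49 for Nr4a1, 0.37 and 0.78 for Nr4a2, and 0.30 and 0.47 for Nr4a3. With each rat left out, they lay between 1.00 and 1.34, 0.34 and 0.67, and 0.25 and 0.53. The 1 member that met the criteria of the methods became 0 with the covariate and stayed 1 with each rat left out. The 0 members at an adjusted p-value under 0.05 (edgeR) became 1, Nr4a1, without both rats, and ranged from 0 to 1 with each rat left out, the 1 being without MK-801 replicate 1. These 2 rats had been singled out in earlier results of this comparison, so their removal is no independent test. Over all genes, the 37 that met these criteria were 115 with DESeq2 (55 higher, 60 lower), 337 without a filter (143 and 194) and 56 without both rats (31 and 25). With each rat left out there were 39 to 64, with 58 when MK-801 replicate 1 and 64 when replicate 5 of that group was left out. The 0 genes at an adjusted p-value became 106 with DESeq2 and 15 without both rats, and 0 to 12 with each rat left out, the 12 being without MK-801 replicate 1. Without a filter more low-count genes were tested; the other causes were not tested.

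The within-group r lay between 0.38 and 0.66 for Nr4a1 and Nr4a2 with each rat left out, between -0.27 and 0.31 for Nr4a1 and Nr4a3, where the sign turned without MK-801 replicate 3 at 0.31, and between -0.61 and 0.90 for Nr4a2 and Nr4a3. The last turned its sign with rho (-0.0909), upper quartile scaling (-0.00858), the replicate block (-0.61) and both rats left out (-0.0604). Its sign also turned without MK-801 replicate 2 (-0.01), MK-801 replicate 5 or control replicate 5 (-0.06). Without both rats, r was 0.09 for Nr4a1 and Nr4a2 and -0.50 for Nr4a1 and Nr4a3 (exact permutation p = 0.099, adjusted p = 0.297).

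Both groups use the same replicate numbers, but nothing says that they pair the rats. Same-numbered rats had a mean correlation of deviations of 0.124. The mean for other pairs, -0.0308, is no independent yardstick, since deviations cancel out within a group and this ties both means together. It was above 0.1 in 3 of 5 pairs, where pairing required all 5, and 5 of 10 rats were closest to their own number. They were therefore not taken as pairs. With the replicate block, 3 of the 3 members and 17.7% of all genes were below 0.05 unadjusted, the log2 fold changes were 1.04, 0.48 and 0.38, 1 member met the criteria and 0 passed adjustment, 39 genes met the criteria (24 and 15) and 0 passed adjustment, and r was 0.49, -0.55 and -0.61. RLE and upper quartile scaling moved the median of all genes by 0.002 and -0.01.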
